A study of Caenorhabditis elegans with 24 samples.

Results

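The cuticle of *C. elegans* is a layered coat of collagens secreted by the epidermis and rebuilt at every molt. Annular furrows run around the body as fine circular grooves, and in the adult, struts connect the inner and outer layers of the coat. The collagen genes described here are named after the shape of their mutants, dumpy (*dpy*), roller (*rol*), squat (*sqt*) or blistered (*bli*). Many cuticle collagen genes are transcribed in successive waves around the molts.

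The 10 genes, of 20191 in the table, were taken by name for these known roles and not by their values. They fall into 3 classes. The furrow class holds *dpy-2*, *dpy-3*, *dpy-7*, *dpy-8*, *dpy-9* and *dpy-10*, which are needed to form the furrows, and the strut class holds *bli-1* and *bli-2*, whose products belong to the adult struts. The last class holds *rol-6*, a collagen whose altered form twists the body into a roller, and *sqt-3*, a collagen required for body shape from embryo to adult.

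RNA from whole nematodes collected at 3 days was measured in 24 libraries of 5 groups, with 5 libraries in each group but 4 for lutein. The wt strain NV48 and the *abl-1* KO strain NV50, which carries *abl-1(ok171)*, were both isolated from a cross of XR1 with GRU102. The wt worms were left untreated or received quercetin or lutein, and the KO worms were left untreated or received quercetin. Both compounds were given at 100 µM. All worms fed from eggs at 20 °C on HT115 carrying the empty vector pL4440. Controls received the solvent, 0.5% DMSO with 0.005% Tween 80. Quercetin is a plant flavonoid, lutein is a plant carotenoid, and *abl-1* encodes the worm homologue of the Abl tyrosine kinase. The labels and the RNA-Seq methods of the study differ for both strains. The methods name NV51 as the KO, a strain listed elsewhere in the study with neuronal Aβ, and mark NV48 as the neuronal Aβ strain, although its strain list gives NV48 as wild type. The labels were followed, and whether neuronal Aβ was present cannot be told apart in these files.

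Each library was made from a pool of many worms grown on plates, and the study's methods call the replicates of a condition different biological replicas. The labels do not say whether they were separate cultures, and p values measure the spread between these libraries. In pooled worms, fewer cells of a type and less RNA per cell cannot be told apart. Levels are given as RPKM, a read density corrected for the exon length of a gene and for library size. Estimated depth was 27.3 to 45.0 M reads per library. *abl-1* itself had 6.85 to 7.77 RPKM in the wt libraries and 1.71 to 2.14 in the KO libraries. The epidermal marker *lin-26* was at 53.5 to 67.2 RPKM in all 24 libraries, the summed yolk genes were between 15300 and 17300 RPKM, and the male tail marker *lov-1* was at or near 0. The summed major sperm protein genes, by contrast, ran from 4.54 to 620 RPKM.

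The members differed widely in level. *sqt-3* and *dpy-10* led, with medians over the 24 libraries of 8.24 and 5.13 RPKM. *dpy-3*, *dpy-2*, *dpy-9* and *dpy-7* followed with medians of 0.883, 0.844, 0.767 and 0.732 RPKM. *dpy-8* had a median of 0.219 RPKM, *rol-6* 0.186, *bli-2* 0.157 and *bli-1* 0.0575.

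By mean level, *sqt-3* was above *dpy-10* in 23 of 24 libraries, and *dpy-10* was above *dpy-3* in all 24, with no overlap between their ranges. *dpy-3*, *dpy-2*, *dpy-9* and *dpy-7* could not be put in a firm order. *dpy-3* was above *dpy-2* in 13 libraries, *dpy-2* above *dpy-9* in 12 and *dpy-9* above *dpy-7* in 14. At the low end the ranges of *bli-2*, *rol-6* and *dpy-8* overlapped as well.

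Depth sets how far these levels can be read. From the estimated depth, a median library held about 394.2 reads of *sqt-3* and 272.7 of *dpy-10*. The same estimate gave 38.9 reads for *dpy-2*, 28.4 for *dpy-3*, 29.3 for *dpy-7* and 28.5 for *dpy-9*. It gave 11.3 for *dpy-8*, 6.4 for *rol-6*, 5.8 for *bli-2* and 5.5 for *bli-1*, so a typical library could not resolve moderate differences in the struts. These are estimates from the steps between low values, not counted reads.

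Of the 10 members, 6 passed the limit for testing, at least 0.5 RPKM in at least 4 libraries, and they are *dpy-2*, *dpy-3*, *dpy-7*, *dpy-9*, *dpy-10* and *sqt-3*. Of the 6 furrow genes, 5 passed. *dpy-8* reached 0.5 RPKM in 2 libraries, *rol-6* in 3, *bli-1* in 2 and *bli-2* in 3, and these 4 were left out of the main fit.

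The members lie on 4 chromosomes of WBcel235, with 5 on chromosome II, 3 on X and 1 each on IV and V. *dpy-10* (II, 6710149 to 6712227, minus strand) and *dpy-2* (II, 6714292 to 6715971, plus strand) are neighbours that point away from each other, 2064 bp apart, with 0 annotated protein-coding genes between them. *bli-2* (II, 5651394 to 5652434, minus strand), *rol-6* (II, 8733050 to 8734239, plus strand) and *bli-1* (II, 10708960 to 10712156, plus strand) complete chromosome II. *dpy-3* (2144605 to 2145647), *dpy-8* (5148804 to 5150476) and *dpy-7* (7536467 to 7537792) are on the minus strand of X. *dpy-9* (257403 to 259204) is on the minus strand of IV and *sqt-3* (12352745 to 12354320) on the plus strand of V.

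Annotated overlaps bear on the values. *dpy-10* shares 780 bp of exon on the same strand with *T14B4.19*, which has its own value of 2.31 to 4.11 RPKM in the table. How reads of the shared stretch were divided is not given in the sources used here, so the *dpy-10* level is uncertain. *bli-2* lies within *zyg-1* on the opposite strand but shares 0 bp of exon with it. *zyg-1* was at 35.7 to 40.5 RPKM throughout, including the libraries in which *bli-2* was high. *dpy-8* shares 109 bp with *C31H2.14*, *sqt-3* 144 bp with *F23H12.13* and *bli-1* 7 bp with *dph-2*, each on the opposite strand.

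The largest differences lay between libraries of the same group. Replicate 4 of wt on quercetin and replicate 3 of *abl-1* KO on quercetin stood apart in the strut genes, whereas the other 4 libraries of each of these groups did not. They were singled out after their values were seen and are called the strut-rich libraries below. *bli-2* had 5.21 RPKM in the former and 5.14 in the latter. In the other 22 libraries it lay between 0.0288 and 0.609 RPKM with a median of 0.145, so the mean of both was 35.8 times that median. *bli-1* was at 1.84 and 1.62 RPKM in the strut-rich libraries and at 0 to 0.269 in the others, 32.9 times their median.

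*rol-6* and *dpy-8* had the same 2 libraries on top. *rol-6* was at 5.96 and 3.30 RPKM there and at 0 to 0.840 in the other 22, 25.4 times their median. *dpy-8* was at 1.75 and 1.74 RPKM, against 0.124 to 0.424 in the other 22, 8.75 times their median. For these 4 genes the strut-rich libraries did not overlap the rest.

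The well detected members showed a smaller excess in the same libraries. *dpy-9* had 2.33 and 1.63 RPKM there, 2.61 times the median of the other 22. *dpy-3* (2.22 and 2.68 RPKM) was 2.98 times that median, *dpy-2* (1.93 and 2.18) 2.81 times, *sqt-3* (19.9 and 21.2) 2.63 times, *dpy-7* (1.63 and 1.66) 2.30 times and *dpy-10* (6.62 and 7.30) 1.40 times. For 7 of the 10 members the strut-rich libraries were the 2 highest of 24. The exceptions were *dpy-7*, *dpy-10* and *sqt-3*.

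**Figure D1:**
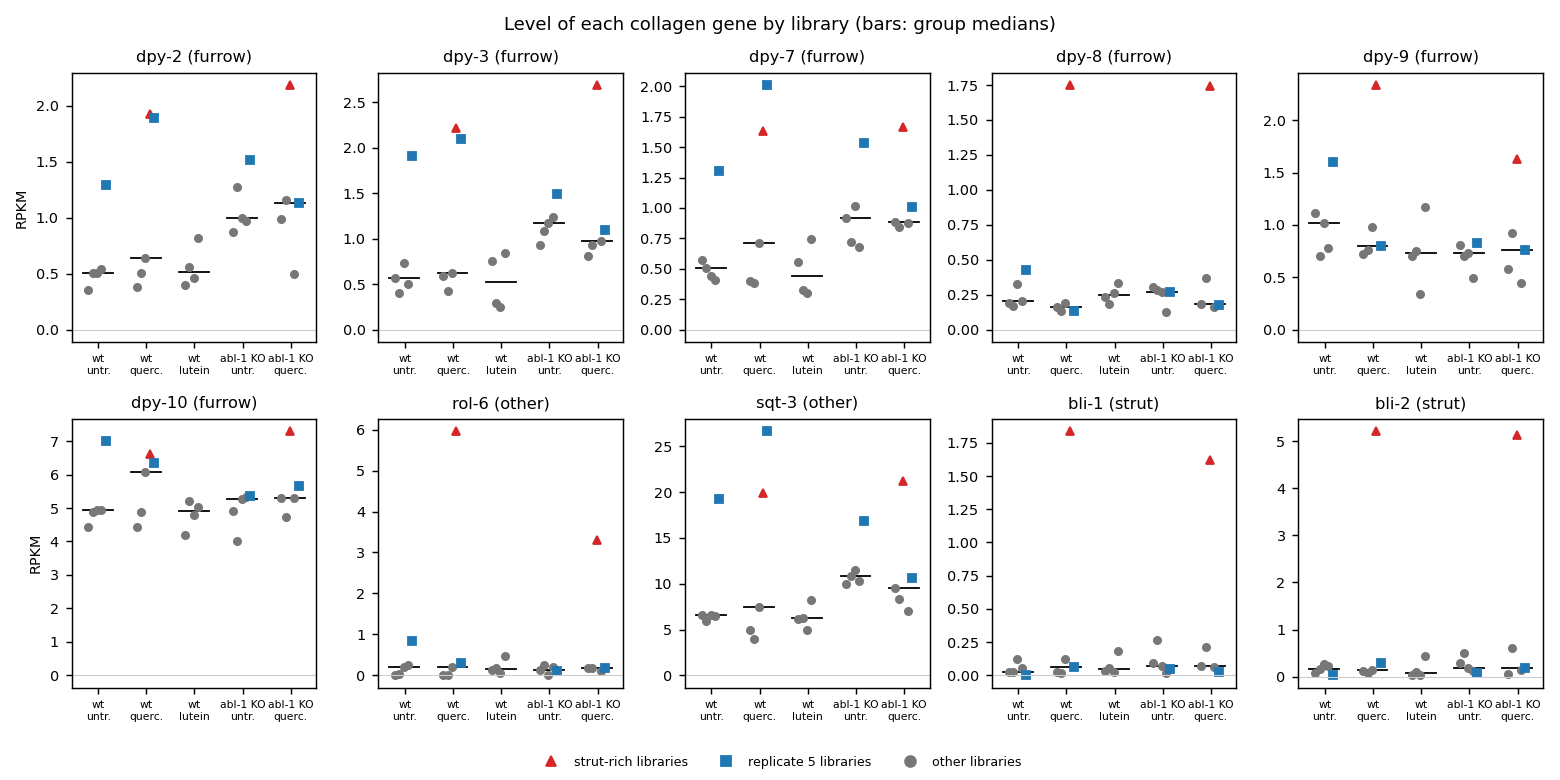
RPKM (y axis, linear, own scale per panel) of each of the 10 collagen genes in every library of the 5 groups, with the group median as a bar. The strut-rich libraries (triangles) stand above the rest for *bli-1*, *bli-2*, *rol-6* and *dpy-8*, while 3 of the 4 replicate 5 libraries (squares) are high for *sqt-3*, *dpy-2*, *dpy-3* and *dpy-7*, the exception being *abl-1* KO on quercetin.

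A second set of libraries separated the members in another way. *sqt-3* was at 19.3 RPKM in replicate 5 of untreated wt, 26.7 in replicate 5 of wt on quercetin and 16.8 in replicate 5 of untreated *abl-1* KO. The 18 libraries that are neither strut-rich nor numbered 5 lay between 3.93 and 11.5 RPKM, with a median of 6.83. Replicate 5 of *abl-1* KO on quercetin, at 10.7 RPKM, was within that range, and lutein has no replicate 5.

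*dpy-2* was at 1.29, 1.89 and 1.51 RPKM in the same 3 replicate 5 libraries, against 0.355 to 1.27 in the 18. *dpy-3* was at 1.91, 2.09 and 1.49 RPKM, against 0.252 to 1.23. *dpy-7* was at 1.30, 2.01 and 1.53 RPKM, against 0.304 to 1.02. The mean of the 3 was 3.06 times the median of the 18 for *sqt-3*, 2.84 times for *dpy-2*, 2.58 times for *dpy-7* and 2.46 times for *dpy-3*.

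The struts did not share this excess. *bli-1* was at 0, 0.0616 and 0.0446 RPKM in these 3 libraries and *bli-2* at 0.0303, 0.294 and 0.0708, ratios of 0.595 and 0.910 to the median of the 18. *dpy-8* was at 0.424, 0.131 and 0.268 RPKM, a ratio of 1.38, and *dpy-9* at 1.60, 0.802 and 0.825 RPKM, a ratio of 1.45. *dpy-10* had a ratio of 1.27. *rol-6*, at 0.840, 0.311 and 0.102 RPKM, had a ratio of 2.70 that rested mainly on replicate 5 of untreated wt.

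The ratio of *bli-2* to *sqt-3* marks the strut-rich libraries. It was 0.242 and 0.261 in the strut-rich libraries and 0.00157 to 0.0734, with a median of 0.0182, in the other 22. The 3 replicate 5 libraries, high in *sqt-3*, *dpy-2*, *dpy-3* and *dpy-7*, are among these 22.

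**Figure D2:**
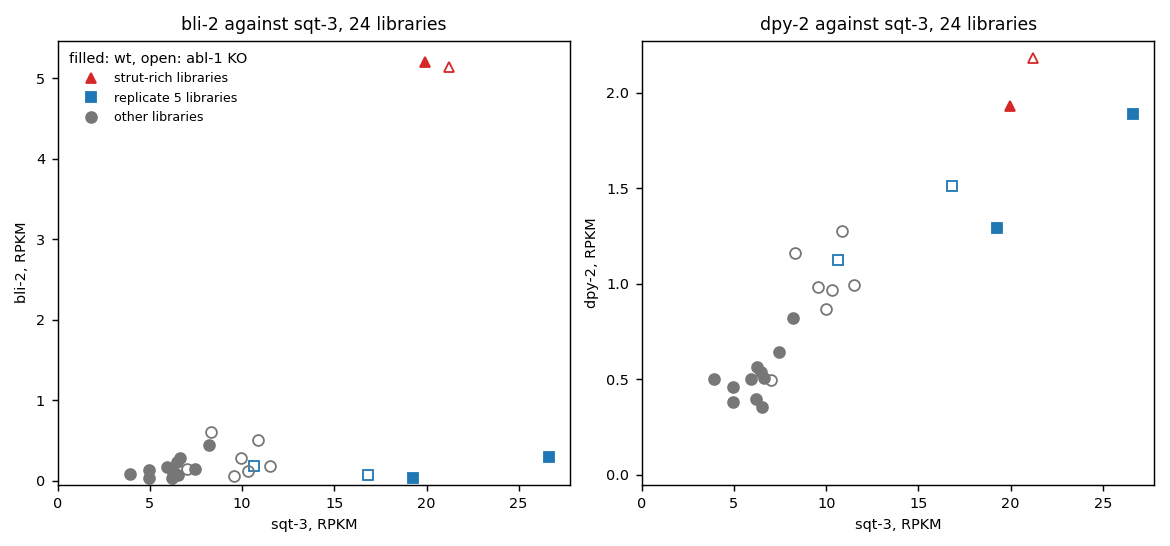
RPKM of *bli-2* (left, y axis) and *dpy-2* (right, y axis) against RPKM of *sqt-3* (x axes) in the 24 libraries, with wt filled and *abl-1* KO open. *dpy-2* climbs with *sqt-3* across the libraries, whereas *bli-2* is above 5 RPKM in the 2 strut-rich libraries and at most 0.609 RPKM in the other 22.

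Correlations across libraries describe the same structure, and the points share depth, mapping and group. On log2(RPKM + 0.5) over 24 libraries, *bli-1* and *bli-2* had r = 0.99 and rho = 0.74, and without the strut-rich libraries, the 2 farthest from the median of *bli-2*, r = 0.85 and rho = 0.67. *sqt-3* varied most closely with part of the furrow class: its r was 0.93 with *dpy-2*, 0.93 with *dpy-3* and 0.94 with *dpy-7*, and without those libraries 0.91, 0.91 and 0.93. Left without the 2 libraries farthest from its own median instead, these were 0.91, 0.92 and 0.92. With *dpy-8* and *dpy-9* its r was 0.54 and 0.53, and 0.24 and 0.31 without the strut-rich libraries, and with *dpy-10* it was 0.72 and 0.62. *dpy-8* had a median of 11.3 estimated reads, so depth limits what its r can show. The part of reads shared with *T14B4.19* in the r of *dpy-10* was not tested. For the 15 pairs among the furrow genes the median r was 0.62 and dropped to 0.32 without the strut-rich libraries, with a range of 0.01 to 0.91.

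The 12 pairs of a furrow gene with a strut gene had a median r of 0.61, and 0.17 over the other 22 libraries. *rol-6* with the struts had r of 0.90 and 0.92, and 0.22 and 0.23 over the 22. The relation of the strut genes to the furrow genes and to *rol-6* thus rested largely on those 2 libraries. That of *sqt-3* with *dpy-2*, *dpy-3* and *dpy-7* did not. The highest r of a furrow gene with a strut gene over the 22 was 0.45, for *dpy-8* with *bli-1*. *rol-6* and the struts had medians of 5.5 to 6.4 estimated reads, so a weaker relation in the 22 could be missed. As deviations from the group means, the median r of *sqt-3* with the furrow genes was 0.86 and that among the furrow genes 0.71. These deviations keep the strut-rich and replicate 5 libraries, so they do not show a relation within groups apart from those libraries.

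For comparison, 10 other collagens with body-shape mutants were listed. *dpy-13* was at 30.6 and 20.7 RPKM in the strut-rich libraries and at 0.0613 to 4.07 in the other 22, 40.7 times their median. *dpy-5* had a ratio of 45.2, *dpy-4* of 34, *sqt-1* of 29.9, *lon-3* of 26.0, *sqt-2* of 25.9 and *rol-8* of 20.6, and the adult collagen *bli-6* had 3.67. For 8 of the 10, these were the 2 highest libraries of 24.

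*dpy-14* and *dpy-17* were the exceptions in the strut-rich libraries. *dpy-14* was at 5.12 and 11.2 RPKM in the strut-rich libraries, 1.04 times the median of the others, and *dpy-17*, whose product acts with that of *sqt-3*, was at 9.53 and 15.1 RPKM, 0.869 times. In the 3 replicate 5 libraries *dpy-17* was at 21.2, 29.1 and 20.9 RPKM and *dpy-14* at 13.8, 21.7 and 16.5 RPKM. Their ratios there, to the median of the 18, were 1.80 and 2.45. Several genes that were high in the strut-rich libraries had ratios as large in these 3, with 4.06 for *sqt-1*, 2.46 for *rol-8*, 2.28 for *sqt-2*, 2.09 for *dpy-13* and 1.96 for *dpy-5*. *lon-3* had 1.70, *dpy-4* 1.18 and *bli-6* 0.715. Many of these ratios were taken at low levels. *sqt-1* was at 0.819, 0.442 and 0.183 RPKM there, against 0 to 0.619 in the 18. *rol-8* was at 0.864, 0.582 and 0.548 RPKM, against 0.107 to 0.921. Replicate 5 of untreated *abl-1* KO was below the median of the 18 for *sqt-2*, *dpy-13* and *dpy-5*. Whether the 10 genes divide into the same classes as the members cannot be read from these ratios.

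Among the collagens numbered *col*, 60 of the 123 with a mean of at least 0.1 RPKM had the strut-rich libraries as their 2 highest, and over all genes 302 of 14994 did, or 2.01%. These counts describe libraries that were picked out by members of the class, so they carry no test. Genes of collagen processing and cross-linking as a list did not share the pattern. Of 14 with a mean of at least 0.1 RPKM, 0 had these libraries on top. Their median ratio was 1.1 and the highest 1.66, for *nas-36* at 0.610 and 0.359 RPKM. *nas-6*, below that limit, was at 0.168 and 0.137 RPKM, against 0 to 0.138 in the others, a ratio of 3.68. *bli-4*, a furin-like protease for procollagens, was at 35.3 and 34.5 RPKM, against 32.6 to 36.1 in the others. *dpy-18*, a subunit of prolyl 4-hydroxylase, was at 14.1 and 14.8 RPKM, against 11.4 to 14.2.

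Genes of molting and the apical matrix gave 5 of 11 with these libraries on top. *qua-1* was at 1.17 and 0.808 RPKM, 5.74 times the median of the others, and *mlt-8* at 6.84 and 5.34 RPKM, 2.93 times. Of the 11 epidermal regulators, 1 had these libraries on top, *lin-42*, at 2.05 and 1.94 RPKM against at most 1.57 in the others. The transcription factors *blmp-1* (2.73 and 2.87 RPKM, against 2.24 to 3.29) and *nhr-23* (23.6 and 23.4, against 23.6 to 27.0) did not stand above the rest, and neither did *lin-26* (55.6 and 54.8). The adult marker *col-19* was at 612 and 843 RPKM, 0.946 times the median of the others. The adult collagens *col-7* and *col-62* were 13.1 and 4.10 times theirs.

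Sperm transcripts moved with this pattern in part. The summed major sperm proteins were at 337 RPKM in the strut-rich wt library and 372 in the strut-rich *abl-1* KO library, against a median of 41.9 over all 24 libraries. Replicate 2 of untreated *abl-1* KO (620 RPKM) and replicate 2 of *abl-1* KO on quercetin (442 RPKM) were higher still, yet their *bli-2* levels were 0.498 and 0.609 RPKM. Male tail markers were between 0.0676 and 0.168 RPKM in sum over the libraries. The part of sperm transcripts in the collagen levels was not tested.

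**Figure D3:**
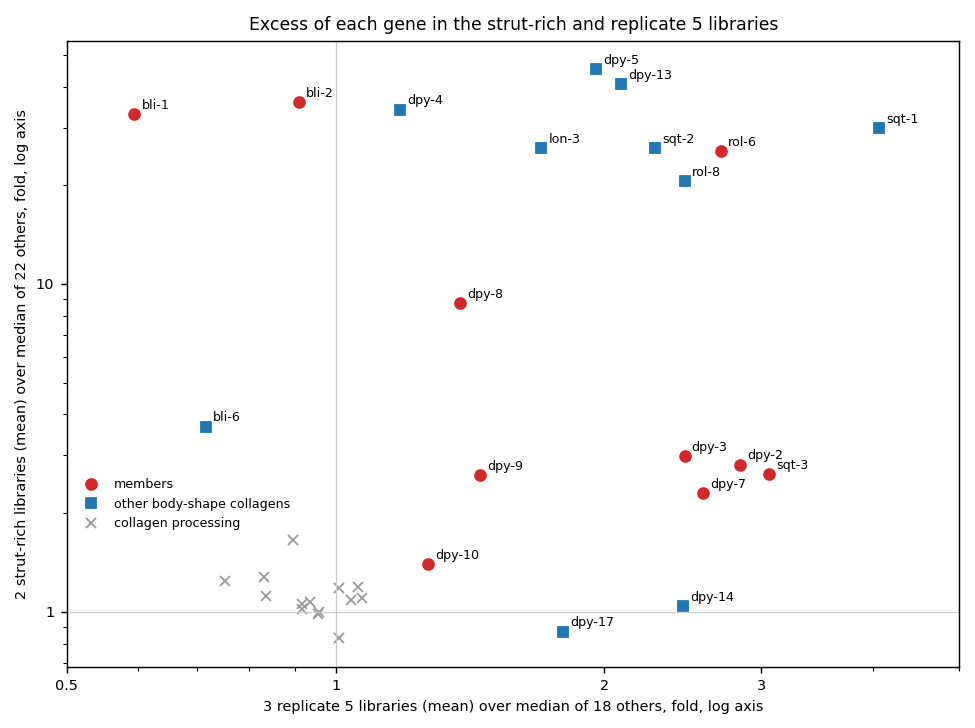
Fold of the mean of the 2 strut-rich libraries over the median of the other 22 (y, log axis) against the fold of the mean of 3 replicate 5 libraries over the median of 18 others (x, log axis), 1 point per gene. *bli-1*, *bli-2* and most other body-shape collagens lie high. *sqt-3*, *dpy-2*, *dpy-3* and *dpy-7* lie to the right at a fold of 2.30 to 2.98, and *dpy-14* and *dpy-17* to the right at a fold near 1. The processing genes lie at 0.832 to 1.66 (y) and 0.752 to 1.07 (x).

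The genes whose profile across the 24 libraries was most like the furrow class, of 10690 with a mean of at least 1 RPKM, were *mlt-8* (r = 0.91), *lpr-3* (0.90), *abu-14* (0.89), *col-107* (0.88) and *ZK180.5* (0.88). Without the strut-rich libraries their r was 0.77, 0.81, 0.84, 0.72 and 0.79. *lpr-3* encodes a lipocalin of the apical matrix and ran from 0.635 to 2.71 RPKM. Those most like the mean profile of *bli-1* and *bli-2* were *col-38* (0.93), *Y47G6A.15* (0.93), *rol-1* (0.93), *col-63* (0.92) and *col-17* (0.91). Their r without the strut-rich libraries was 0.62, 0.63, 0.63, 0.62 and 0.43, and *rol-1*, another roller gene, was at 11.4 and 10.5 RPKM in those libraries with a median of 0.110 over all 24. *rol-1*, *col-63* and *col-17* reached a mean of 1 RPKM through the strut-rich libraries alone, with means of 0.31, 0.47 and 0.48 in the other 22, so the limit favoured genes high in those libraries and their likeness is a description.

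The first comparison asks whether quercetin acts on these genes in wt worms. None of the 6 tested members was called in limma at an adjusted p of 0.05, and 0 of 12771 genes were called (0%), with 173 genes and 0 members at an unadjusted p of 0.05 or less. *dpy-2* was at 0.355, 0.503, 0.505, 0.539 and 1.29 RPKM in untreated wt. On quercetin it was at 0.381, 0.501, 0.643, 1.93 and 1.89 RPKM. The groups overlapped, and both high values on quercetin came from replicate 4, a strut-rich library, and replicate 5.

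*dpy-2* had the largest difference, 0.37 on the log2(RPKM + 0.5) scale (SE 0.28, 95% interval -0.20 to 0.95, limma adjusted p = 1). This scale understates differences of low genes. All 6 members had values above 0, with a median of 0.27, against 0.01 for all genes tested, of which 54.1% were above 0. With both strut-rich libraries left out, *dpy-2* differed by 0.18 and *sqt-3* by -0.00 in place of 0.25. With the replicate 5 libraries left out too, *dpy-2* differed by 0.04 and *sqt-3* by -0.26.

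The strut genes could not be compared in the main fit. *bli-2* averaged 1.17 RPKM ± 2.26 (SD, n = 5) on quercetin and 0.154 ± 0.104 (SD, n = 5) in untreated wt. The difference came from 1 library of 5. Without a filter on low values, where all 10 members were fitted, 0 were called and the lowest adjusted p was 1.

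Lutein, the second compound, was compared with the same untreated wt libraries. In limma 0 of the 6 members were called and 0% of all genes, with 209 genes and 0 members at an unadjusted p of 0.05 or less. *dpy-9* had the largest difference, at 0.341, 0.707, 0.749 and 1.17 RPKM on lutein against 0.702, 0.775, 1.02, 1.12 and 1.60 in untreated wt. It was lower by 0.33 on the log2 scale (SE 0.25, 95% interval -0.84 to 0.19, limma adjusted p = 1), and the groups overlapped. All 6 members lay below 0, with a median of -0.25, against 0.01 for all genes. Without replicate 5 of untreated wt that median was -0.02.

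Quercetin and lutein were given at the same dose of 100 µM for the same time, so their groups in wt can be set against each other. Here 0 of the 6 members were called in limma, and 0% of all genes were, with 179 genes and 0 members at an unadjusted p of 0.05 or less. *dpy-3* had the largest difference. It was at 0.252, 0.287, 0.756 and 0.839 RPKM on lutein and at 0.420, 0.594, 0.620, 2.22 and 2.09 on quercetin, higher on quercetin by 0.60 (SE 0.33, 95% interval -0.09 to 1.29, limma adjusted p = 1). With the strut-rich and replicate 5 libraries left out, the difference was 0.06, and the members' median was 0.05 in place of 0.48.

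The second question is whether loss of *abl-1* shifts these genes in untreated worms. None of the 6 tested members was called in limma, whereas 61 of 12771 genes were called, 0.478%, 40 higher and 21 lower in KO. *dpy-2*, *dpy-3*, *dpy-7* and *sqt-3* had higher means in KO than in wt, and *dpy-10* and *dpy-9* lower means. The median of the 6 was 0.41, against 0.03 for all genes, of which 62.2% were above 0. No member was at an unadjusted p of 0.05 or less in this fit, and 1412 genes were. With the replicate number as a block, *dpy-2* had an unadjusted p of 0.0378 and a limma adjusted p of 0.224.

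*dpy-2* was at 0.870, 1.27, 0.993, 0.966 and 1.51 RPKM in the 5 untreated KO libraries. Their mean was 1.12 ± 0.264 RPKM (SD, n = 5), against 0.639 ± 0.372 (SD, n = 5) in wt. The difference was 0.55 (SE 0.28, 95% interval -0.03 to 1.12, limma adjusted p = 0.487). Replicate 5 of wt, at 1.29 RPKM, overlapped the KO libraries, and the other 4 wt libraries were at most 0.539 RPKM.

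*sqt-3* showed the same layout. Untreated KO libraries were at 9.96, 10.9, 11.5, 10.3 and 16.8 RPKM, and untreated wt libraries at 6.54, 5.95, 6.64, 6.48 and 19.3. The difference was 0.52 (SE 0.41, 95% interval -0.33 to 1.37, limma adjusted p = 0.636). Every KO library was above 4 of the 5 wt libraries. *dpy-3* was at 0.928 to 1.49 RPKM in KO and at 0.404 to 0.733 in those 4 wt libraries, with 1.91 in replicate 5.

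With the strut-rich and replicate 5 libraries left out, *sqt-3* differed by 0.69, *dpy-2* by 0.64, *dpy-3* by 0.61 and *dpy-7* by 0.43, and 0 members were called (lowest limma adjusted p = 0.0708, *sqt-3*). Since these libraries were set aside for their levels of the same genes, that p is a description. *dpy-9* had the largest difference downward, -0.33 (SE 0.23, 95% interval -0.81 to 0.16, limma adjusted p = 0.605), from 0.497 to 0.825 RPKM in KO and 0.702 to 1.60 in wt. *dpy-10* differed by -0.06 (95% interval -0.31 to 0.20).

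Exact permutation tests (two-sided) of the single members numbered 60, for 10 members in 6 comparisons. *dpy-2* in untreated KO against wt had the smallest p, 0.0397, and an adjusted p of 1 over the 60 exact tests. The smallest p that 5 against 5 libraries allow is 0.00794. These tests shuffled libraries without regard to replicate number, although most same-numbered libraries deviated together. In 0 of the 60 tests were the groups free of overlap. The share over all genes is not given here, so this count is no result about the members.

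On quercetin, the KO and wt groups lay closer. In limma 0 of the 6 members were called, and 62 of 12771 genes were, 0.485%, with 1045 genes and 0 members at an unadjusted p of 0.05 or less. *dpy-2* was at 0.986, 1.16, 2.18, 0.498 and 1.13 RPKM in KO on quercetin. It differed from wt on quercetin by 0.18 (SE 0.28, 95% interval -0.40 to 0.75, limma adjusted p = 0.886). Without the strut-rich *abl-1* KO library alone that difference was -0.01. *dpy-9* differed by -0.22 (SE 0.23, limma adjusted p = 0.812) and by 0.00 without the strut-rich wt library. Each group held 1 strut-rich library.

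With both strut-rich libraries and the replicate 5 libraries left out, *sqt-3* differed by 0.60, *dpy-7* by 0.47, *dpy-2* by 0.43 and *dpy-3* by 0.43 between the strains on quercetin. Beside them stand 0.69, 0.43, 0.64 and 0.61 without quercetin. The lowest limma adjusted p of a member here was 0.347. Replicates 1, 2 and 3 of wt and replicates 1, 2 and 4 of KO remained on quercetin. The libraries left out were set aside for their levels of the same genes. These differences and that p are therefore a description.

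Quercetin in *abl-1* KO gave differences of -0.15 to 0.16 in the 6 tested members. As in wt, 0 of the 6 members were called in limma and 0% of all genes, with 233 genes and 0 members at an unadjusted p of 0.05 or less. *dpy-10* had the largest difference upward, 0.16 (SE 0.12, 95% interval -0.09 to 0.42, limma adjusted p = 1), from 4.02 to 5.36 RPKM in untreated KO and 4.73 to 7.30 on quercetin. *sqt-3* had the largest difference downward, -0.15 (SE 0.41, 95% interval -1.0 to 0.70), and -0.35 with the strut-rich and replicate 5 libraries left out. *bli-2*, outside the main fit, averaged 1.23 RPKM ± 2.2 (SD, n = 5) on quercetin and 0.233 ± 0.169 (SD, n = 5) in untreated KO, and the high value came from 1 strut-rich library, as in wt. Without a filter on low values, *bli-2* differed by 0.60 (SE 0.56), *rol-6* by 0.57 (SE 0.56) and *bli-1* by 0.36 (SE 0.35), each with a limma adjusted p of 1.

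Whether quercetin acted differently in KO and in wt was tested directly as an interaction. The fit in limma called 0 of the 6 members and 0% of all genes were, with 203 genes and 0 members at an unadjusted p of 0.05 or less. *sqt-3* had the largest value, -0.40 (SE 0.58, 95% interval -1.60 to 0.80, limma adjusted p = 1), from a difference on quercetin of -0.15 in KO and 0.25 in wt. *dpy-9* had 0.11 (SE 0.33), and -0.07 without the strut-rich *abl-1* KO library. These intervals are wide, so differences within them remain possible.

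**Figure D4:**
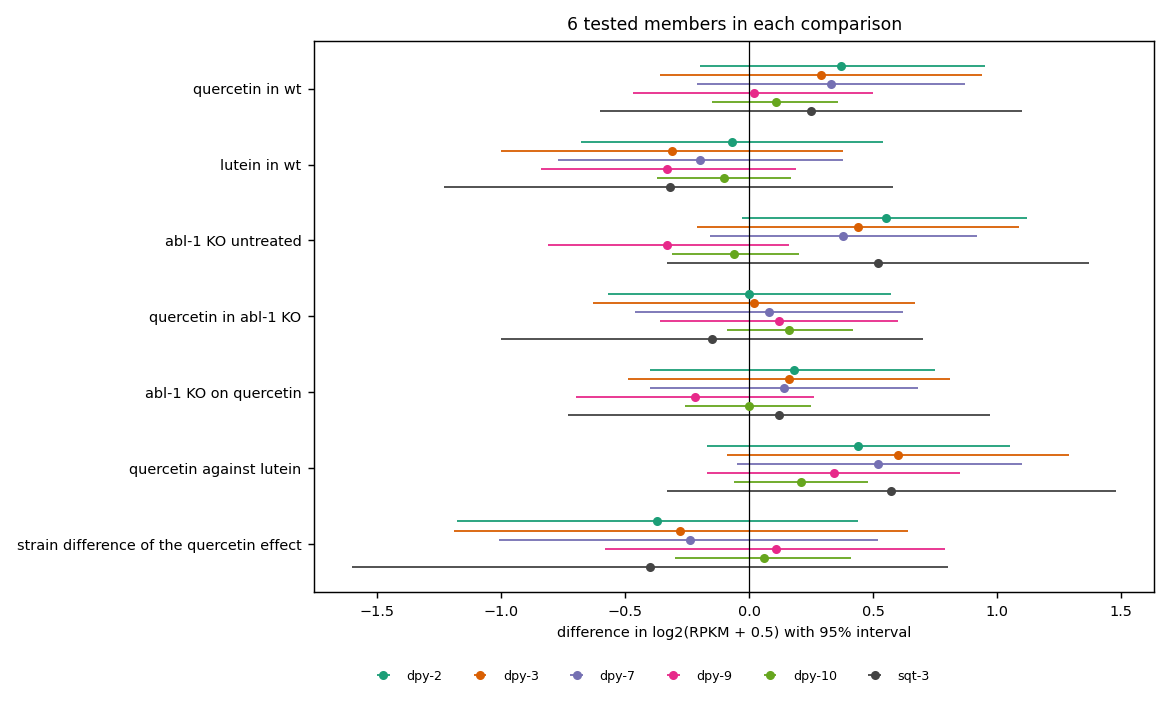
Differences in log2(RPKM + 0.5) with 95% intervals (x axis) of the 6 tested members in each of the 7 comparisons (y axis). Every interval contains 0, the closest being that of *dpy-2* in untreated *abl-1* KO against wt, -0.03 to 1.12.

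The lists around these genes gave 0 calls in the 7 comparisons, whether collagen processing, epidermal regulators, molting and apical matrix, other body-shape collagens, the response to furrow damage or the *col* collagens. In untreated KO against wt, 11 of 13 tested processing genes lay above 0, with a median of 0.13, against 62.2% and 0.03 for all genes. Lists of other kinds leaned the same way, with 7 of 7 epidermis markers, 3 of 3 muscle markers and 28 of 28 major sperm protein genes above 0. Of the yolk genes 3 of 6 were. *nas-37*, a protease of the molt, had 4.77 ± 0.467 RPKM (SD, n = 5) in KO and 3.79 ± 0.468 in wt, a difference of 0.30 (SE 0.08, limma adjusted p = 0.1). *pdi-2*, a disulfide isomerase that partners prolyl hydroxylase, differed by 0.13 (limma adjusted p = 0.244) and *bli-3*, the dual oxidase that cross-links the cuticle, by 0.14 (limma adjusted p = 0.357).

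The other body-shape collagens had a median of 0.23 in the same comparison, with 8 of 9 above 0, against 0.03 and 62.2% for all genes. *dpy-14* was at 12.7 ± 2.36 RPKM (SD, n = 5) in KO and 8.15 ± 3.34 in wt, a difference of 0.67 (SE 0.28, limma adjusted p = 0.386), and *dpy-17* differed by 0.25 (limma adjusted p = 0.645). For the *col* collagens, 95 of 104 lay above 0, with a median of 0.28 against 0.03 for all genes. In wt on quercetin, the median of the other body-shape collagens was 0.51 and that of the *col* collagens 0.42. Without the strut-rich libraries these were -0.12 and 0.08.

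Worms that lack furrows are known to switch on osmotic, detoxification and antimicrobial genes, so 8 of these were listed as a readout. In untreated KO against wt, 0 were called, 7 of 8 lay above 0 and the median was 0.35, against 62.2% above 0 and a median of 0.03 for all genes. *nlp-31*, an antimicrobial peptide gene, had 29.2 ± 12.0 RPKM (SD, n = 5) in KO and 16.9 ± 3.99 in wt, a difference of 0.72 (SE 0.23, limma adjusted p = 0.216). *nlp-29* differed by 0.68 (limma adjusted p = 0.380). The sum of the 8 genes was 173 RPKM in replicate 2 of untreated KO, also the library with the most sperm transcripts. It was 75.4 to 89.8 RPKM in the other untreated KO libraries and 56.9 to 89.6 in untreated wt. In the strut-rich libraries 1 of the 8 had its 2 highest values, *nlp-34*, at 4.87 and 3.88 RPKM against at most 3.04 in the others, 2.38 times their median. *cnc-2* was at 7.68 and 5.14 RPKM, 1.51 times. *nlp-29* was at 16.3 and 18.8 RPKM and *gst-4*, a detoxification gene, at 12.0 and 10.8, 0.801 and 0.828 times the median of the others. *gpdh-1*, of the osmotic response, was at 2.84 and 2.74 RPKM there, 1.00 times theirs.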

How the data were processed

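Whole-nematode RNA was sequenced as 1 x 150 bp reads from stranded mRNA libraries. The authors aligned trimmed reads to WBcel235 with CLC Genomics Workbench and deposited RPKM values of 20191 genes. Whether strand was used in counting, and how multi-mapped reads were treated, is not given in the sources used here.

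Log2(RPKM + 0.5) of the 24 libraries was fitted as 5 groups in limma 3.58.1 (R 4.3.3) with a variance trend, over 12771 genes with at least 0.5 RPKM in at least 4 libraries. P values were adjusted by Benjamini-Hochberg over all genes tested, and a gene was called at 0.05 or less. The fit was also run on simulated data with independent normal noise. Those data held no replicate structure and no outlying libraries, so that run says nothing about either. Depth was estimated from steps between low values, of which 51.8% to 62.7% lay within 0.1 of a whole read (20% if random). Positions came from Ensembl release 115. The members and gene lists were chosen with earlier results of these data known. Named by rule were the members with the largest difference each way, list genes with the smallest adjusted p, and the 5 genes most like each class.

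Alternatives changed the pseudocount, filter, scaling, adjustment, variance model, libraries fitted and replicate block, and left out libraries. The alternatives without strut-rich or replicate 5 libraries, or without the 2 libraries richest in sperm transcripts, were chosen after seeing the data. No sequences were used here.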

Additional observations from a re-analysis of the deposited data

Results flagged for a closer look

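For each of 50 combinations of a member and a group, the gap of the outermost library to the nearest other was divided by the group's range. This was done on the log2(RPKM + 0.5) scale. In 17 combinations the quotient exceeded Dixon's critical value for the group size. For a single combination chance gives about 1 in 20. The combinations share libraries and the members vary together, so the 17 cannot be set against that rate. The share over all genes is not given here.

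The strut-rich library of wt on quercetin, replicate 4, accounted for 5 of these. It stood above its group for *bli-2* (5.21 RPKM, others at most 0.294), *rol-6* (5.96, others at most 0.311), *bli-1* (1.84, others at most 0.124), *dpy-8* (1.75, others at most 0.187) and *dpy-9* (2.33, others at most 0.983). The strut-rich library of *abl-1* KO on quercetin, replicate 3, accounted for another 5. It stood out for *rol-6* (3.30 RPKM, others at most 0.187), *bli-1* (1.62, others at most 0.211), *dpy-8* (1.74, others at most 0.366), *dpy-3* (2.68, others at most 1.09) and *dpy-7* (1.66, others at most 1.01).

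Replicate 5 of untreated wt accounted for 4, with *sqt-3* at 19.3 RPKM (others at most 6.64), *dpy-2* at 1.29 (others at most 0.539), *dpy-7* at 1.30 (others at most 0.574) and *dpy-10* at 7.0 (others at most 4.93). *T14B4.19*, which shares exon with *dpy-10* on the same strand, also had its highest value in that library, 4.11 RPKM. The part of shared reads in the *dpy-10* value was not tested. Replicate 5 of untreated *abl-1* KO was high for *sqt-3*, at 16.8 RPKM with the others at most 11.5. The remaining 2 were at low levels: *dpy-8* at 0.124 RPKM in replicate 4 of untreated *abl-1* KO (others from 0.268) and *bli-1* at 0.182 RPKM in replicate 4 of wt on lutein (others at most 0.0516).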

How the results depend on the processing

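Under 40 alternatives, 0 members were called in any comparison, with limma adjusted p of at least 0.0708. Among the 11 differences named by rule, directions turned for *dpy-2* and *dpy-9*. In *abl-1* KO against wt on quercetin, *dpy-2* ran from -0.01 without replicate 3 of KO to 0.37 without replicate 4 of wt. That is the range with single libraries left out. In that comparison it was 0.43 with the strut-rich and replicate 5 libraries left out. *dpy-9* ran there from -0.39 without replicate 3 of KO to 0.00 without replicate 4 of wt, and was 0.00 with that library and replicate 2 of untreated KO left out together, a pair chosen for sperm transcripts that proved not to be the richest pair. Between the strains' quercetin effects, *dpy-9* ran from -0.07 without replicate 3 of KO on quercetin to 0.33 without replicate 4 of wt on quercetin, and was -0.02 with all replicate 5 libraries left out and -0.01 without replicate 5 of untreated wt. The cause was not tested. In quercetin against lutein, the members' median was 0.05 with the strut-rich and replicate 5 libraries left out, in place of 0.48.

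Replicate numbers paired most but not all libraries: deviations of 46 same-numbered pairs correlated with r of -0.61 to 0.67 (median 0.32, 37 over 0.1, other pairs -0.12 in median), and 15 of 24 libraries matched their own number best. With the replicate block, 0 members were called, and the members' median in untreated *abl-1* KO against wt was 0.41. Over all genes the block gave 466 calls there in place of 61, and 252 in place of 62 on quercetin. Bonferroni adjustment gave 28 and 29, and the fit of only the libraries compared 39 and 41. With quantile normalization, 26 of 54 calls in untreated KO were higher, in place of 40 of 61. Depth limits the struts, *dpy-8* and *rol-6*, with medians of 5.5 to 11.3 estimated reads.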
